A study of Mus musculus with 20 samples.

Results

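Sestrins and REDD proteins restrain mTOR complex 1, the kinase complex that drives protein synthesis and cell growth, and their mRNAs were followed in mouse muscle cells given hydrogen peroxide. The 5 genes were Sesn1, Sesn2, Sesn3, Ddit4 (which encodes REDD1) and Ddit4l (which encodes REDD2). They were read by 9 probe sets, sets of short oligonucleotides on the array, namely 3 for Sesn1, 2 for Sesn2, 1 for Sesn3, 1 for Ddit4 and 2 for Ddit4l. These are all the probe sets whose only gene symbol in the platform annotation is one of the 5 names, out of 22626 probe sets that are not controls and 12393 named genes. A filter on dim probe sets left 8 of the 9 for testing, and 14387 on the whole array.

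The cells were C2C12, an established mouse myoblast line that fuses into multinucleated myotubes when serum is lowered. Myotubes differentiated for 96 h received H2O2 for 2 h at 1, 10, 100 or 1000 µM in medium with 0.5% horse serum, or the same medium with 0 µM (untreated myotubes). There were 4 arrays at each of these 5 doses, 20 in all, each with total RNA on an Affymetrix Mouse Genome 430A chip. All groups came from 1 line without any genetic change named in the labels, and nothing says that the 4 arrays of a dose came from separate cultures, so p-values measure only the spread between these arrays, which may be technical.

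Sestrins are stress-induced proteins that bind GATOR2, a protein complex upstream of the Rag GTPases, and keep mTOR complex 1 off the lysosome when leucine is short. They also help the cell regenerate oxidised peroxiredoxins, partly by aiding the removal of KEAP1, the inhibitor of the antioxidant factor NRF2. REDD1 and REDD2 act by another route, through the TSC1-TSC2 complex that switches off RHEB, the direct activator of mTOR complex 1. In muscle these proteins are known as brakes on growth: REDD1 responds to low oxygen, glucocorticoids and energy stress, and REDD2 is abundant in skeletal muscle.

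The promoters of Sesn2, Ddit4 and Ddit4l are shown because these genes were high on the same arrays. Each line gives the 250 bases before the RefSeq transcription start on the gene's own strand, from RefSeq's table for mouse build GRCm38.p6. The windows lie at chr4:132510457-132510706 on the minus strand for Sesn2, chr10:59951771-59952020 on the minus strand for Ddit4 and chr3:137623422-137623671 on the plus strand for Ddit4l. Capitals mark matches on either strand to 6 motifs of factors known to act on such genes.
Sesn2: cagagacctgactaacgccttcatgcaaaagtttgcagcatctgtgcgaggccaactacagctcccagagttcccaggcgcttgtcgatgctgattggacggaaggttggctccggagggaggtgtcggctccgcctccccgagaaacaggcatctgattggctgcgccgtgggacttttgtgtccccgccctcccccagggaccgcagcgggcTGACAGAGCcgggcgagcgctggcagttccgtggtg
Ddit4: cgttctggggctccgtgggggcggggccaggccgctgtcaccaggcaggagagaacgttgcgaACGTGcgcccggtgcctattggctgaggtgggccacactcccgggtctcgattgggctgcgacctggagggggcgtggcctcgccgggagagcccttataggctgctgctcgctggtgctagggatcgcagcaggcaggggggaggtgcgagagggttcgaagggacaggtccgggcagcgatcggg
Ddit4l: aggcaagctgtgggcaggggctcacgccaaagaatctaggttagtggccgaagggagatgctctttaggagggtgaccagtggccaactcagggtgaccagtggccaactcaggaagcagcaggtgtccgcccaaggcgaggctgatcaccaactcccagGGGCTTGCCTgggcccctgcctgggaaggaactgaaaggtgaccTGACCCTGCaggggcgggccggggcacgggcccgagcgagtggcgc
The motifs searched were the C/EBP-ATF composite TGATGNAAN, the CREB/ATF core TGACG, the antioxidant response element core TGACNNNGC, the hypoxia response element core ACGTG, the FOXO core GTAAACA and the p53 decamer. The CREB/ATF letters can lie within the antioxidant letters, but the matches shown do not overlap each other. In Sesn2 the capitals are an antioxidant core whose first base is at position -36 from the start. The Ddit4 window held a hypoxia core at -187. In Ddit4l the capitals are a p53 decamer at -90 and an antioxidant core at -46.

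Of all 32851 RefSeq promoter windows of this length, 10.2% held the antioxidant core, 16.6% the hypoxia core, 7.13% the p53 decamer and 17.8% the CREB/ATF core. The C/EBP-ATF composite was in 3.44% and the FOXO core in 3.17%. The 5 genes have 6 windows, because Sesn1 has 2 starts: the antioxidant core was in 2 of the 6, the p53 decamer in 2, the hypoxia core and the CREB/ATF core in 1 each, and the composite and the FOXO core in 0. The Sesn3 window and the first Sesn1 window held none of the 6, and the second Sesn1 window held a CREB/ATF core at -61 and a p53 decamer at -173. A match is only a run of letters in the window. In the same build Sesn1 spans chr10:41810574-41908436, Sesn2 chr4:132492804-132510456, Sesn3 chr9:14276301-14326134, Ddit4 chr10:59949675-59951770 and Ddit4l chr3:137623672-137628332. The array annotation names no build, so the probes' own positions are not given.

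Values are linear signals scaled to a trimmed mean of 500 on every array, so a signal compares arrays for 1 probe set but not 1 probe set with another. Changes are log2 differences with their standard error (SE). A change is called where limma's adjusted p, taken over all tested probe sets in that comparison, is under 0.05. Calls took in 0% of tested probe sets at 1 µM against untreated, 0.00695% at 10 µM, 1.22% at 100 µM and 10.9% at 1000 µM. All 14 myotube markers listed, among them Myog, Ckm and Acta1, were over the dim-signal level, the 40th percentile of each array, on all 20 arrays, and so were all 9 cell cycle genes on the array. Of 7 fibroblast markers, Col1a1, Col1a2, Col3a1 and Dcn were over it on all 20 arrays, Pdgfra on 15 and Lum and Thy1 on 0. Of 6 leukocyte markers on the array, Cd14 was over it on 17 and Lyz2 on 3, and of 4 endothelial markers Kdr was on 3, the others of both lists on 0. All 5 adipocyte markers on the array were under it on every array. The myotube markers summed to 83329 to 101286 signal units in untreated myotubes, 103407 to 109864 at 1 µM and 94149 to 125565 at 10 µM. At 100 µM they summed to 93152 to 111936 and at 1000 µM to 104048 to 111072. The fibroblast markers summed to 14140 to 25330 signal units at 100 µM and 16419 to 23786 at 1000 µM, against 13229 to 23507 in untreated myotubes. The cell cycle genes summed to 9059 to 9524 signal units at 100 µM and 9337 to 10858 at 1000 µM, against 9570 to 11141 in untreated myotubes, and 2 of the 9 fell at each of these doses. Their part in the results below was not tested, and in RNA of whole cultures fewer cells of a type and less RNA per cell cannot be told apart. The first principal component, 28.2% of the variance, set 5 arrays apart from the other 15, namely the 4 numbered 1 and the unnumbered 10 µM array, which is 1 per dose. The median log2 signal of all non-control probe sets was lower by 0.20 at 1000 µM than in untreated myotubes. Centring arrays on that median gave 2027 higher and 407 lower calls at 1000 µM, against 354 higher and 1220 lower with the trimmed-mean scaling, and quantile normalization gave 294 and 477. At 100 µM against untreated the split was 168 higher and 18 lower with centring, against 124 and 51. At 1000 against 100 µM it was 208 and 193 with centring and 105 and 262 with quantiles, against 107 and 518.

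**Figure D1:**
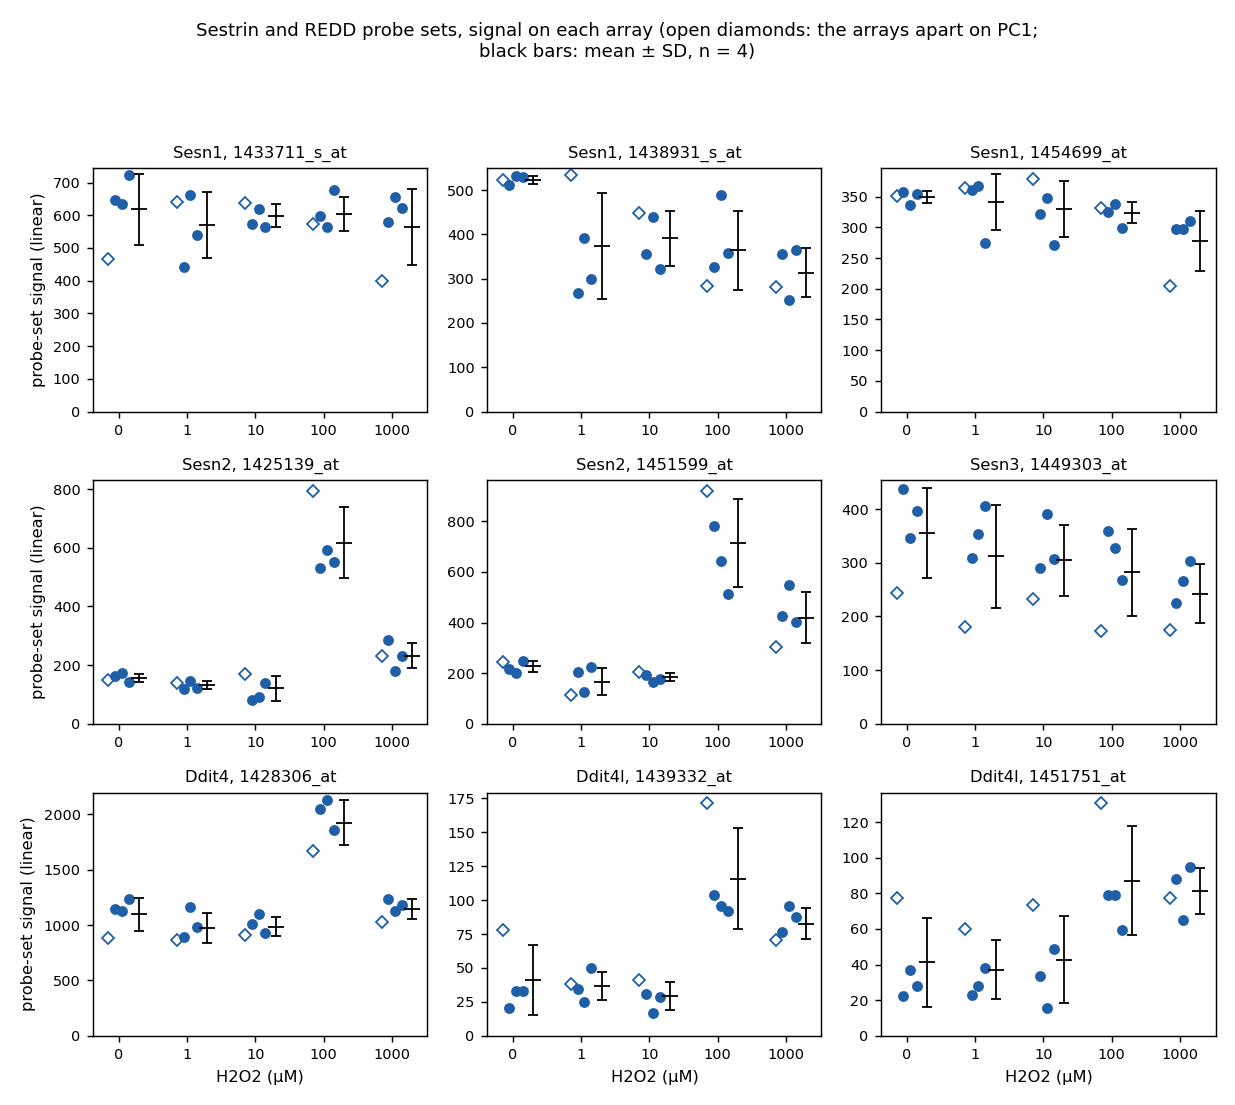
Linear signal (vertical axes, scaled units starting at 0) of each of the 9 probe sets on every array, by H2O2 dose in µM (horizontal axes); open diamonds are the 5 arrays apart on the first principal component, and black bars are mean ± SD of 4 arrays. Both Sesn2 probe sets, Ddit4 and both Ddit4l probe sets have their highest means at 100 µM, and the Sesn3 diamond is the lowest array at every dose.

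At 100 µM, mRNA of Sesn2 and Ddit4 rose, Sesn2 to 3.09 and 3.90 times its untreated level on its 2 probe sets and Ddit4 to 1.76 times. Ddit4l was also called higher, but on a probe set that was under the dim-signal level on all untreated arrays. That probe set entered the tests only through the high doses. With signals raised to the dim-signal level its estimated rise at 100 µM was 1.18-fold and was not called (limma adjusted p = 0.601). Sesn1 and Sesn3 were not called at that dose. At 1000 µM every array was above every untreated array on both Sesn2 probe sets, of which 1 was called, and Ddit4l was at the threshold, while Ddit4 had 1.05 times its untreated level. By probe set, 4 of the 8 tested were called higher and 0 lower at 100 µM against untreated, beside 0.862% of tested probe sets called higher and 0.354% lower. At 1000 µM 2 were called higher and 1 lower, beside 2.46% and 8.48%. Leaving out the Ddit4l probe set, whose call its own rise made possible, 3 of 7 were higher at 100 µM, and 1 was higher and 1 lower at 1000 µM. Without 1000 µM replicate 3, 0 were called at that dose. At 1 and 10 µM 0 were called by limma, where 961 and 717 probe sets of the whole array had an unadjusted p under 0.05.

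Sesn2, a sestrin that binds leucine, has 2 probe sets. The signals on 1451599_at, the brighter of them, were 244, 215, 201 and 247 in untreated myotubes, 114, 204, 125 and 222 at 1 µM, 204, 192, 166 and 178 at 10 µM, 921, 781, 644 and 514 at 100 µM, and 303, 425, 550.0 and 401 at 1000 µM. On 1425139_at they were 149, 162, 173 and 143 in untreated myotubes, 139.9, 117, 144 and 121 at 1 µM, 169, 81.7, 90.1 and 139.8 at 10 µM, 794, 533, 591 and 552 at 100 µM, and 231, 284, 180.4 and 232 at 1000 µM. On both, every array at 100 µM was above every untreated array, and so was every array at 1000 µM. Groups set apart upward in this way made up 3.79% of tested probe sets at 100 µM and 6.65% at 1000 µM.

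The rise at 100 µM was 1.63 (SE 0.21, limma adjusted p = 9.36e-05) on 1451599_at and 1.96 (SE 0.20, adjusted p = 3.47e-06) on 1425139_at. In order of size among all tested probe sets these were the 19th and the 6th largest rises. Set against 10 µM, the same dose gave rises of 1.92 (SE 0.21, adjusted p = 1.09e-05) and 2.41 (SE 0.20, adjusted p = 1.91e-07), and the second was the largest rise of any tested probe set between these doses. At 1000 µM 1451599_at rose by 0.86 over untreated (SE 0.21, adjusted p = 0.0121), but without 1000 µM replicate 3 its adjusted p was 0.0516. The other probe set was higher by 0.55 at 1000 µM (SE 0.20, adjusted p = 0.0783) and was not called. With arrays centred on their median it was called, at 0.75 (adjusted p = 0.018), as it was with quantile normalization (0.0361), a batch term (0.0291) and array weights (0.00935).

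Between the top doses Sesn2 mRNA fell. On 1425139_at it fell by 1.41 at 1000 against 100 µM (SE 0.20, adjusted p = 0.000169), and the groups did not overlap, as in 10.4% of tested probe sets. On 1451599_at it fell by 0.77 (SE 0.21, adjusted p = 0.0419), with 1000 µM replicate 3 (550.0) above 100 µM replicate 4 (514). That second call was lost in replicates 2 to 4 alone, where the difference was -0.49 (adjusted p = 0.13), and under other settings with adjusted p up to 0.140. The order of mean signals was 100 µM, 1000 µM, untreated and then the low doses, and the ranges of untreated, 1 and 10 µM arrays overlapped on both probe sets. At 1 µM 1451599_at differed from untreated by -0.50 (SE 0.21, adjusted p = 0.716), and at 10 µM 1425139_at by -0.45 (SE 0.20, adjusted p = 0.963), so a lower level at these doses was not called. The 10 µM difference of 1425139_at was called only under array weights (-0.75, adjusted p = 0.0279). In replicates 2 to 4 alone, every 10 µM array lay below every untreated array on both probe sets. The differences there were -0.65 on 1425139_at (limma adjusted p = 0.297) and -0.30 on 1451599_at (limma adjusted p = 0.631). Within the arrays set apart they were 0.18 and -0.26. The share of all tested probe sets apart in replicates 2 to 4 was not counted.

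Ddit4 encodes REDD1, which activates the TSC complex and thereby lowers mTOR complex 1 activity. The signals of its 1 probe set, 1428306_at, were 883, 1145, 1128 and 1231 in untreated myotubes, 866, 889, 1160 and 980.2 at 1 µM, 911, 1007, 1102 and 924 at 10 µM, 1668, 2053, 2127 and 1857 at 100 µM, and 1025, 1233, 1131 and 1184 at 1000 µM. All 4 arrays at 100 µM stood above all 16 arrays at other doses, which overlapped each other. Of tested probe sets, 3.54% lay apart upward at 100 against 10 µM, and the share that lay above all 16 was not counted.

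Ddit4 rose by 0.82 at 100 µM against untreated (SE 0.11, limma adjusted p = 0.000208) and by 0.96 against 10 µM (SE 0.11, adjusted p = 2.21e-05). It fell by 0.75 at 1000 against 100 µM (SE 0.11, adjusted p = 0.000419). These 3 calls held in the 11 alternative fits and without any 1 array, while a rule that asked for no overlap and a mean ratio over 1.75 did not call the fall. At 1000 µM it differed from untreated by 0.07 (95% interval -0.17 to 0.30, adjusted p = 0.763), which leaves a rise of up to 1.23 times within the interval. Centred on the array median that difference was 0.27, and it was called under none of the 11 alternative fits. The within-set differences at 100 µM were 0.92 for the arrays set apart and 0.78 for the other 3 against 3.

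Ddit4l encodes REDD2, the paralogue of REDD1. Its probe set 1439332_at gave 78.2, 20.2, 33.2 and 32.8 in untreated myotubes, 37.8, 34.6, 25.2 and 50.1 at 1 µM, 41.4, 30.5, 16.8 and 28.9 at 10 µM, 171, 104, 95.9 and 92.1 at 100 µM, and 70.6, 76.3, 95.9 and 87.6 at 1000 µM. The dim-signal level lay between 77.6 and 106 on these arrays. It was reached by 4 of 4 arrays at 100 µM, 2 of 4 at 1000 µM and 0 at the other doses, so this probe set was tested only because the high doses lifted it, and its call is no support for the others.

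On 1439332_at Ddit4l rose by 1.63 at 100 µM against untreated (SE 0.38, limma adjusted p = 0.0328) and by 2.00 against 10 µM (SE 0.38, adjusted p = 0.00707). The 100 µM arrays were above all untreated arrays. At 1000 µM the rise was 1.18 (SE 0.38, adjusted p = 0.0498), and untreated replicate 1 (78.2) lay above 2 of the 4 arrays at 1000 µM. Within the arrays set apart, the 1000 µM array had 70.6 and the untreated array 78.2, a difference of -0.15. The other 3 against 3 differed by 1.62. Raising signals to the 40th percentile of their array left 0.24 at 100 µM (adjusted p = 0.601) and -0.12 at 1000 µM (adjusted p = 0.646). Both calls against untreated were lost on leaving out any array but untreated replicate 1, with adjusted p from 0.0584 to 0.136 at 100 µM and from 0.0650 to 0.153 at 1000 µM.

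The second Ddit4l probe set, 1451751_at, was too dim to be tested. It read 77.6, 22.5, 36.9 and 27.7 in untreated myotubes, 60.0, 23.1, 27.8 and 37.8 at 1 µM, 73.2, 33.7, 15.5 and 48.8 at 10 µM, 131, 79.2, 78.9 and 59.4 at 100 µM, and 77.3, 88.0, 65.1 and 94.7 at 1000 µM. Untreated replicate 1 was again high, and the untreated range overlapped that of both high doses. In a fit without the filter its difference was 1.19 at 100 µM (SE 0.45, adjusted p = 0.391) and 1.14 at 1000 µM (SE 0.45, adjusted p = 0.153). Ddit4l at 1000 against 100 µM differed by -0.45 on 1439332_at (SE 0.38, adjusted p = 0.597) and was not called.

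Sesn1, a p53 target and the sestrin best known from muscle, has 3 probe sets that differ among themselves. On 1438931_s_at the untreated arrays gave 523, 511, 532 and 529.8, the 1 µM arrays 535, 268, 392 and 299.8, the 10 µM arrays 448, 356, 439 and 322, the 100 µM arrays 284, 327, 489.8 and 358, and the 1000 µM arrays 282, 356, 252 and 365. At 10, 100 and 1000 µM every array lay below every untreated array, and at 1 µM 3 of 4 did. Groups set apart downward made up 2.67% of tested probe sets at 10 µM, 5.19% at 100 µM and 13.8% at 1000 µM. The SD was 55.6 to 119.7 signal units at the 4 doses of H2O2 and 9.23 in untreated myotubes (n = 4 each).

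Sesn1 fell by 0.76 on this probe set at 1000 µM against untreated (SE 0.19, limma adjusted p = 0.0143). The differences at lower doses were -0.54 at 1 µM (adjusted p = 0.621), -0.43 at 10 µM (adjusted p = 0.963) and -0.55 at 100 µM (adjusted p = 0.216), and these were not called. At 100 µM it was called only under array weights (-0.50, adjusted p = 0.0402). The fall at 1000 µM was not called with median centring (-0.55, adjusted p = 0.0734), with quantile normalization (adjusted p = 0.0709) or without 1000 µM replicate 3 (adjusted p = 0.0551).

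The brightest Sesn1 probe set, 1433711_s_at, showed no such pattern. It read 465, 647, 634 and 724 in untreated myotubes, 641, 442, 661 and 541 at 1 µM, 638, 574, 621 and 563 at 10 µM, 574, 599, 564 and 677 at 100 µM, and 399, 579, 657 and 622 at 1000 µM. All 5 groups overlapped. Its differences from untreated were -0.02 at 100 µM (95% interval -0.34 to 0.30) and -0.14 at 1000 µM (95% interval -0.46 to 0.18), and centring on the array median made the value at 1000 µM 0.06.

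The third, 1454699_at, gave 351, 358, 336 and 355 in untreated myotubes, 365, 362, 367 and 274 at 1 µM, 379, 321, 349 and 272 at 10 µM, 331, 325, 339 and 299.8 at 100 µM, and 205, 297, 298 and 309.8 at 1000 µM. Every 1000 µM array was below every untreated array, yet the difference of -0.35 (SE 0.13, limma adjusted p = 0.0914) was not called. Exact permutation tests of the difference in change between probe sets of 1 gene, 15 in all, gave 0 with adjusted p under 0.05. For 1438931_s_at against 1433711_s_at at 1000 µM the unadjusted p was 0.0286, the smallest that 4 against 4 arrays allow, and the adjusted p was 0.143. An adjusted p under 0.05 would have needed 9 of the 15 tests at the smallest p, so these tests could hardly tell the Sesn1 probe sets apart or show that they act alike.

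Sesn3, a sestrin regulated by FOXO factors, had signals on 1449303_at of 243, 438, 345 and 396 in untreated myotubes, 181, 309.6, 353 and 405 at 1 µM, 232, 289.6, 391 and 306 at 10 µM, 173, 358, 328 and 268 at 100 µM, and 175, 225, 266 and 304 at 1000 µM. Replicate 1, from the arrays set apart, was the lowest at every dose. With 4 arrays a dose, all groups overlapped.

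Sesn3 differed from untreated by -0.35 at 100 µM (SE 0.26, limma adjusted p = 0.685) and by -0.55 at 1000 µM (SE 0.26, adjusted p = 0.182), and neither was called. Within the arrays set apart the 1000 µM array had 175 and the untreated array 243, a difference of -0.47. The other 3 arrays averaged 265 at 1000 µM and 393 in untreated myotubes, a difference of -0.58. With these arrays as a batch term the adjusted p at 1000 µM was 0.00582, in replicates 2 to 4 alone 0.0143 and with array weights 0.0104. With median centring the difference was -0.35 (adjusted p = 0.372).

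**Figure D2:**
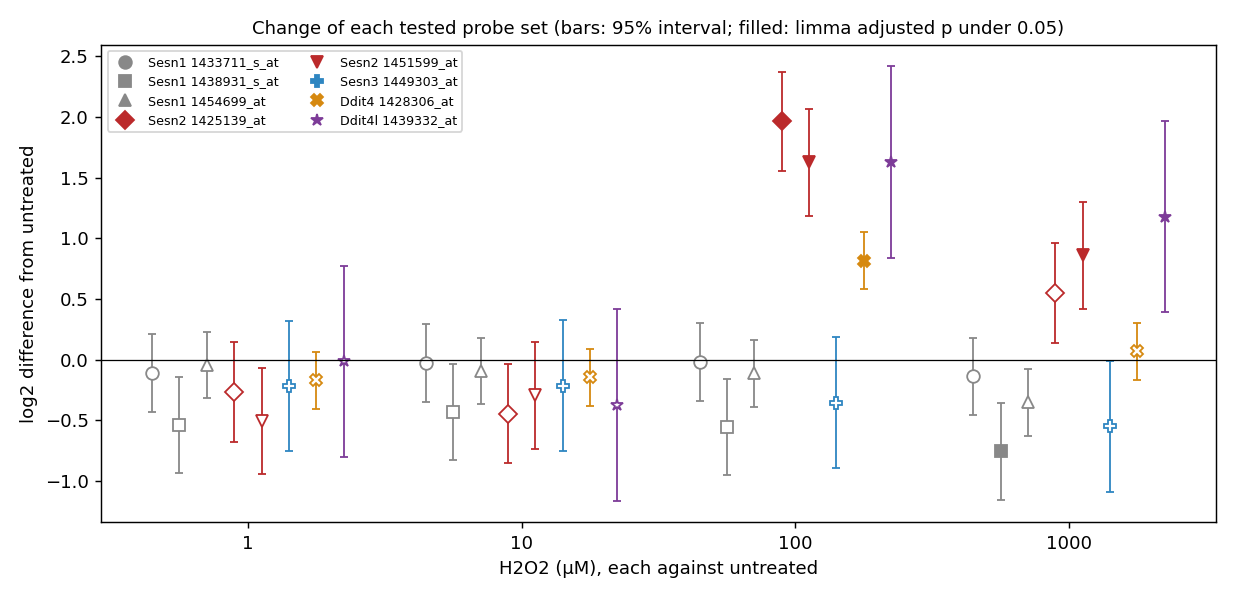
Log2 difference from untreated (vertical axis) of the 8 tested probe sets at each H2O2 dose in µM (horizontal axis, log scale); bars are 95% intervals and filled markers have a limma adjusted p under 0.05. At 100 µM the filled markers are both Sesn2 probe sets (1.96 and 1.63), Ddit4 (0.82) and Ddit4l (1.63), and at 1000 µM Sesn2 1451599_at (0.86), Ddit4l (1.18) and Sesn1 1438931_s_at (-0.76).

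Across neighbouring doses, both Sesn2 probe sets and Ddit4 were called higher at 100 against 10 µM, 3 of the 7 that did not depend on the high doses to be tested, beside 0.772% of tested probe sets, and 0 were called lower, beside 0.16%. At 1000 against 100 µM 3 were called lower (both of Sesn2 and Ddit4), beside 3.6%, and 0 were called higher, beside 0.744%. Of the same 7, a linear trend over dose rank was called upward for Sesn2 on both probe sets and Ddit4 and downward for Sesn1 1438931_s_at, where 2.82% of probe sets had an upward and 8.39% a downward trend. The F-test of any change over the 5 doses was called for both Sesn2 probe sets and Ddit4, beside 8.01% of tested probe sets. Ddit4l 1439332_at was called at 100 against 10 µM, in the trend and in the F-test too. But the high doses that these compare had put it in the tests. At 1000 against 100 µM it was not called (limma adjusted p = 0.597). For Ddit4 the trend does not describe the values, since only the 100 µM arrays stood out. Sesn2 did not rise steadily with dose rank either: on both probe sets its mean was highest at 100 µM and lower at 1000 µM.

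Whether 2 of the genes changed by different amounts was tested on the difference of their log2 signals within each array, for 10 pairs in 3 comparisons. Of these 30 exact permutation tests, 10 reached the smallest possible p of 0.0286, and 0 had an adjusted p under 0.05, the smallest being 0.0857. At 100 µM against untreated Sesn2 changed by 1.65 more than Sesn1 and by 1.98 more than Sesn3 (exact permutation adjusted p = 0.0857 for Sesn1 and for Sesn3). Ddit4 and Sesn2, on 1451599_at, differed in change by 0.81 at 100 µM (exact permutation adjusted p = 0.114) and by 0.79 at 1000 µM (exact permutation adjusted p = 0.0857). An adjusted p under 0.05 would have needed 18 of the 30 tests at the smallest p, whatever the size of any 1 difference, so the adjusted values say little for or against a difference between these genes. As a description over the 20 arrays, which share their doses and the arrays set apart, log2 signals of the Sesn2 probe sets correlated at r = 0.863 with each other. For 1451599_at r was 0.790 with Ddit4 and 0.871 with Ddit4l, while Ddit4 and Ddit4l had r = 0.559. The Ddit4l signals in these correlations lay under the dim-signal level on most arrays.

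Genes of the routes through which sestrins and REDD proteins act were listed in 4 groups, the mTOR complexes, the TSC complex with RHEB, the Rag and GATOR genes and AMPK. Of their 28 tested genes 0 were called at 100 µM, and 0 were higher and 4 lower at 1000 µM. Each gene is represented by its brightest probe set, and of such genes over the array 0.993% were called higher and 0.404% lower at 100 µM, and 2.63% higher and 8.05% lower at 1000 µM. Means of these genes are given ± SD of 4 arrays. The median difference over all 8160 tested genes was -0.02 at 100 µM and -0.05 at 1000 µM. Among the mTOR complex subunits, 4 of 9 listed were tested: 0 were called at 100 µM, with a median of -0.14, and 1 fell at 1000 µM, with a median of -0.29. The 1 was Deptor, an inhibitory subunit, which averaged 886 ± 196 at 1000 µM and 1336 ± 314 in untreated myotubes and fell by 0.59 (SE 0.18, limma adjusted p = 0.0411). Another Deptor probe set differed by 0.21 the other way (760 at 1000 µM and 644 in untreated myotubes, adjusted p = 0.372), and the call was lost on leaving out any 1 of 6 arrays. Of the TSC complex and RHEB, 4 of 5 were tested, with 0 called at 100 µM and 1 lower at 1000 µM, Tsc1, the scaffold of the REDD-regulated complex, which fell by 0.41 (SE 0.10, adjusted p = 0.0106). Their medians were -0.02 and -0.28. A second Tsc1 probe set differed by 0.04 at 1000 µM (SE 0.35) and was not called (limma adjusted p = 0.960). Its means, 67.7 at 1000 µM and 67.3 in untreated myotubes, lay under the lowest dim-signal level of any array, 77.6. With that SE it could hardly show a fall of 0.41.

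Of the Rag GTPases, Ragulator and GATOR genes, the route of the sestrins, 16 of 25 were tested, 0 were called at 100 µM and 2 fell at 1000 µM. These were Mios, a GATOR2 subunit, which fell by 0.37 (SE 0.09, limma adjusted p = 0.0162), and Flcn, a regulator of the Rag GTPases, which fell by 0.43 (SE 0.13, adjusted p = 0.0331). The list's median was 0.01 at 100 µM and 0.06 at 1000 µM. The AMPK list, 4 of 8 tested, had 0 called at either dose, with medians of -0.19 and -0.03. None of the falls of Deptor, Tsc1, Mios and Flcn at 1000 µM was called with median centring or quantile normalization. That of Flcn was also lost on leaving out any 1 of 4 arrays and that of Mios without 1.

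Growth factor input to mTOR had 9 of 15 genes tested, with 1 higher and 1 lower at 100 µM and 2 lower at 1000 µM, and medians of -0.17 and -0.22. These counts go by the brightest probe sets. Pik3ca was not called on its brightest at 1000 µM (-0.22, limma adjusted p = 0.243). On its dimmer probe set it fell by 0.74 (SE 0.11, limma adjusted p = 0.000123). Trib3, a stress-induced pseudokinase that binds AKT, had 681 ± 57.7 at 100 µM and 396 ± 50.5 in untreated myotubes and rose by 0.79 (SE 0.13, limma adjusted p = 0.00204). Its second probe set differed by 0.24 and was not called (adjusted p = 0.729). Irs1, the insulin receptor substrate, fell by 0.46 at 100 µM (SE 0.11, adjusted p = 0.0295) and by 0.79 at 1000 µM (SE 0.11, adjusted p = 5.68e-05). Igf1r, the IGF1 receptor, fell by 0.47 at 1000 µM (SE 0.10, adjusted p = 0.00352). The fall of Irs1 at 1000 µM held in every alternative. Its fall at 100 µM was lost in 9 of 19 settings, namely with median centring, in a fit of only these 2 groups and on leaving out any 1 of 7 arrays. That of Igf1r was lost with both other scalings.

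Outputs of mTOR had 12 of 13 genes tested, with 1 higher and 0 lower at 100 µM and 0 higher and 2 lower at 1000 µM, and medians of 0.05 and -0.12. Lpin1, a phosphatidate phosphatase controlled by mTOR complex 1, averaged 339.9 ± 92.8 at 100 µM and 181 ± 14.1 in untreated myotubes, a rise of 0.87 (SE 0.15, limma adjusted p = 0.00349), and it fell by 0.90 at 1000 against 100 µM (SE 0.15, adjusted p = 0.00134). The rise was lost in a fit of only the 2 groups (adjusted p = 0.0568), and a second Lpin1 probe set differed by 0.40 (adjusted p = 0.542). Ulk2, an autophagy kinase, fell by 0.41 at 1000 µM (SE 0.10, adjusted p = 0.00952), and Eif4ebp2, a translation repressor, by 0.27 (SE 0.08, adjusted p = 0.0446). Neither of these falls was called with median centring, and that of Eif4ebp2 was lost on leaving out any 1 of 7 arrays.

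The redox partners of sestrins had 6 of 7 genes tested, with 2 higher at 100 µM, 0 called at 1000 µM and medians of 0.22 and 0.08. Srxn1, sulfiredoxin, which repairs over-oxidised peroxiredoxins, had 835 ± 1.90 at 100 µM and 351 ± 119.9 in untreated myotubes. It rose by 1.30 (SE 0.16, limma adjusted p = 4.07e-05) and fell by 1.13 at 1000 against 100 µM (SE 0.16, adjusted p = 0.000142). Nfe2l2, which encodes NRF2, rose by 0.37 at 100 µM (SE 0.09, adjusted p = 0.0419), a call lost without any 1 of the 8 arrays.

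Transcription factors known to regulate the 5 genes had 9 of 13 tested, with 2 higher at 100 µM, 2 higher and 3 lower at 1000 µM and medians of 0.02 and -0.30. Ddit3, the stress factor CHOP, had 825 ± 99.8 at 100 µM and 379 ± 28.2 in untreated myotubes, a rise of 1.12 (SE 0.10, limma adjusted p = 1.72e-06), and at 1000 µM it rose by 0.58 (SE 0.10, adjusted p = 0.00109). Atf4, the amino-acid and stress response factor, rose by 0.47 at 100 µM (SE 0.11, adjusted p = 0.0250) and by 0.46 at 1000 µM (SE 0.11, adjusted p = 0.00851). In a fit of only the 2 groups neither rise of Atf4 was called; the first was also lost on leaving out any 1 of 3 arrays and the second with quantile normalization. On its other probe set the differences were 0.13 (adjusted p = 0.875) and 0.43 (adjusted p = 0.163), neither called. Foxo1, a regulator of muscle atrophy genes, fell by 0.82 at 1000 µM (SE 0.12, adjusted p = 0.0002), but another of its probe sets rose by 0.66 at 100 µM (SE 0.14, adjusted p = 0.0164) where the brightest was not called. At 1000 µM Trp63, a p53 relative, fell by 0.70 (SE 0.20, adjusted p = 0.0264) and Atf6, an endoplasmic reticulum stress factor, by 0.38 (SE 0.11, adjusted p = 0.0280), both calls lost with either other scaling and on leaving out any 1 of 4 arrays.

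**Figure D3:**
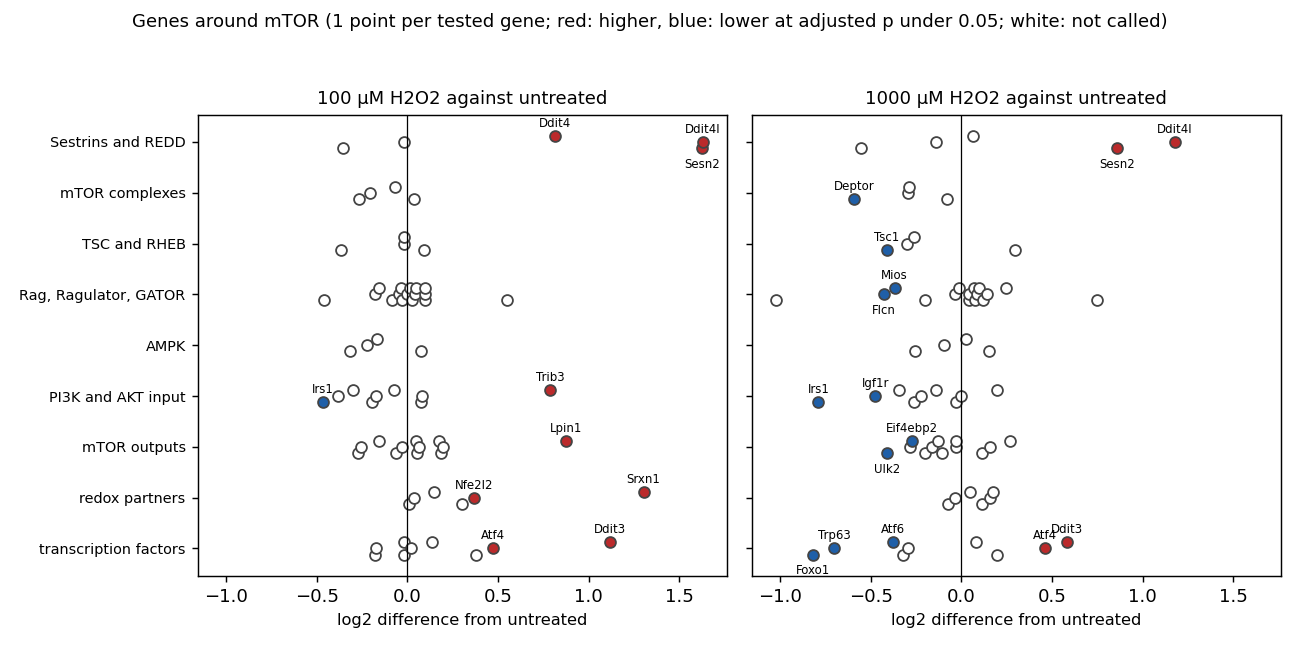
Log2 difference from untreated (horizontal axes) of every tested gene of each list, 1 point per gene, at 100 µM (left) and 1000 µM (right); red points rose, blue fell and white were not called at a limma adjusted p under 0.05. At 100 µM the red points besides Sesn2, Ddit4 and Ddit4l are Trib3, Lpin1, Srxn1, Nfe2l2, Ddit3 and Atf4, and the blue point is Irs1.

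The genes most alike to each member were taken as the 4 with the highest Pearson correlation of log2 signal over the 20 arrays among 8155 genes. The arrays share 5 doses and the split described above, and no p is given. For Sesn2 they were Ddit3 (r = 0.941), Mdm2 (0.933), which encodes the ubiquitin ligase of p53, Bbc3 (0.922), which encodes the death-promoting protein PUMA, and Trp53inp1 (0.918), a p53-induced gene. Mdm2 rose by 1.33 at 100 µM (SE 0.13, limma adjusted p = 1.9e-06) and by 1.01 at 1000 µM (SE 0.13, adjusted p = 2.48e-05). Trp53inp1 rose by 1.69 at 100 µM (SE 0.13, adjusted p = 3.75e-08) and by 0.93 at 1000 µM (SE 0.13, adjusted p = 5.27e-05), and Bbc3 by 1.09 (SE 0.14, adjusted p = 7.15e-05) and 0.72 (SE 0.14, adjusted p = 0.00183).

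For Ddit4 the most alike were Pdk4 (r = 0.958), which encodes a kinase that inhibits pyruvate dehydrogenase, Trib3 (0.897), Pgd (0.896), an enzyme of the pentose phosphate pathway, and Txnrd1 (0.894), which encodes thioredoxin reductase. Pdk4 rose by 0.72 at 100 µM (SE 0.09, limma adjusted p = 0.000117) and differed by 0.07 at 1000 µM (SE 0.09, adjusted p = 0.688). Txnrd1 rose by 0.80 at 100 µM (SE 0.08, adjusted p = 3.47e-06) and differed by 0.21 at 1000 µM (SE 0.08, adjusted p = 0.0980). For Ddit4l, whose signals lay under the dim-signal level on most arrays, they were Ifrd1 (r = 0.890), Osgin1 (0.883), Trp53inp1 (0.865) and Sgk1 (0.858). The last is a glucocorticoid-induced kinase. Osgin1, an oxidative stress gene, rose by 1.93 at 100 µM (SE 0.24, adjusted p = 4.62e-05) and by 1.28 at 1000 µM (SE 0.24, adjusted p = 0.00135).

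For Sesn1 the highest were Ngly1 (r = 0.821), Usp19 (0.819), Serac1 (0.801) and Syap1 (0.790), of which 0 were called at 100 or 1000 µM. For Sesn3 they were B4galnt1 (r = 0.908), Mest (0.904), Rere (0.895) and Mrtfa (0.885), again with 0 called. Without the 5 arrays set apart, the correlations of the Sesn3 genes were 0.720, 0.673, 0.713 and 0.633, in that order, while those of Sesn2 lay between 0.934 and 0.947 and those of Ddit4 between 0.914 and 0.962.

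**Figure D4:**
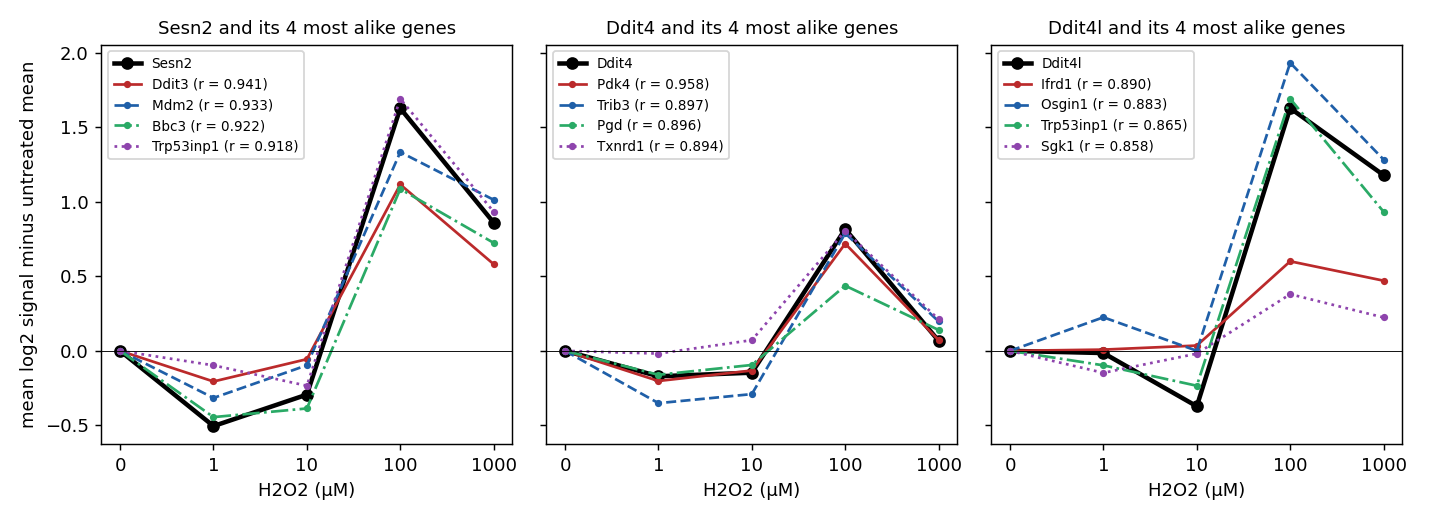
Mean log2 signal minus the untreated mean (vertical axis, 4 arrays per dose) against H2O2 dose in µM for Sesn2, Ddit4 and Ddit4l (thick black lines) and the 4 genes most alike to each; r is Pearson's correlation over the 20 arrays. The Sesn2 line peaks at 100 µM and is still above 0 at 1000 µM (0.86). The Ddit4 line and that of Pdk4 are near 0 there (0.07 each). The Ddit4l line also peaks at 100 µM and is at 1.18 at 1000 µM. Its probe set was under the dim-signal level on all untreated arrays and on 2 of 4 at 1000 µM. With signals raised to that level the Ddit4l difference at 1000 µM was -0.12.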

How the data were processed

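Total RNA of 20 C2C12 myotube samples was measured on 1-channel arrays, with groups taken from the sample titles. Per the labels' design text and the submitters' processing notes, the authors made linear intensity values, 1 per probe set, with Affymetrix Microarray Suite 5.0. Their 2% trimmed mean was 500.1 to 500.2 on every array as deposited, and the authors' detection and difference calls were not used here. Arrays have no read depth; 4 arrays per dose limit the precision. One title misspells the unit of 1 µM, and a 10 µM title carries no number, so its array is named replicate 1 here.

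From these values each array was rescaled to a trimmed mean of 500, floored at 1 and taken to log2. Of 22690 probe sets, 64 controls were left out. Probe sets were tested where 4 or more of the 20 arrays reached their own 40th percentile. One model of the 5 groups was fitted with limma 3.58.1 in R 4.3.3, by lmFit and a trended eBayes (residual degrees of freedom 15, prior 5.33), and adjusted p-values are two-sided Benjamini-Hochberg values within each comparison, with n = 4 arrays per group. The pipeline was tested on simulated data. Exact permutation tests over 70 assignments compared changes between genes. Symbols came from the platform annotation, which pairs 20380 probe sets with 1 symbol; 0 changed on matching Entrez identifiers to RefSeq. All 5 genes matched the promoter table. Named are the 5 genes, called genes of the 8 pathway lists (at most 4 per list and direction) and the 4 genes most alike to each member. Pik3ca is named for a call on its dimmer probe set. The members and lists were chosen with earlier results of these data known. Alternatives were other scalings, floors and filters, a replicate block, a batch term, array weights and leaving out arrays.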

Additional observations from a re-analysis of the deposited data

Results flagged for a closer look

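Among 45 groups of 4 arrays examined (9 probe sets at 5 doses), 3 held an array far from the rest of its dose by Dixon's criterion, which chance meets in about 1 group in 20. On the Sesn1 probe set 1454699_at, replicate 4 at 1 µM had a signal of 274, while the other 3 lay between 362 and 367. On the same probe set replicate 1 at 1000 µM had 205, against 297 to 309.8 on the other 3. On the Ddit4l probe set 1439332_at replicate 1 at 100 µM had 171, against 92.1 to 104 on the other 3.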

How the results depend on the processing

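The number of Sesn and Ddit4 probe sets called at 1000 µM against untreated, 3 of 8 tested, was 5 with array weights, 5 with the batch term and 1 under a rule that asked for no overlap and a mean ratio over 1.75; it ran from 0 to 3 on leaving out 1 array, and was 0 without 1000 µM replicate 3. At 10 µM it was 1 with array weights, against 0, and at 1000 against 100 µM 1 under the ratio rule, against 3. Leaving out 1 array gave 3 to 4 at 100 µM, 2 to 3 at 1000 against 100 µM, and 0 at 1 and 10 µM. The Ddit4l difference at 1000 µM turned to -0.12 with signals raised to the 40th percentile, a level most of its arrays lie below, against 1.18. Of 912 values of single probe sets under the alternatives, 865 kept the call or its absence. Another 35 lost the call, 11 gained it and 1 called value turned round. A change of sign between uncalled differences was counted among the 865. Calls over the whole array were 79 to 892 under the alternatives at 100 µM against 175 in the fit reported, 262 to 4267 at 1000 µM against 1574, 77 to 762 at 100 against 10 µM where 134 were reported, and 166 to 2653 at 1000 against 100 µM where 625 were. At 1 µM they were at most 107, against 0, and at 10 µM at most 79, against 1. The cause of these moves was not tested. Of 20 calls of list genes against untreated, some genes being called at both high doses, 14 were lost in at least 1 alternative.

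With the replicate number as a block, 5 member probe sets were called at 1000 µM, with Sesn3 at an adjusted p of 0.0103 and Sesn2 1425139_at at 0.0333 added. Deviations of same-numbered arrays correlated at 0.461 to 0.514 for number 1, 0.0528 to 0.195 for number 2, 0.109 to 0.244 for number 3 and 0.00928 to 0.261 for number 4. All 36 values were above 0 and 33 above 0.1, the level every pair had to pass, so the numbers were not taken to pair the arrays. The deviations were taken from each dose's mean, which the array set apart moves, and arrays of unlike number were not compared. These correlations therefore cannot tell pairing from that split. Depth is not a limit that arrays record; Ddit4l, near the dim-signal level, is the least exact.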
